A study of Mus musculus with 6 samples.

Results

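Microglia-rule cells from 1 mouse labelled as bearing brain metastases were compared with those from 1 naive mouse, in the second replicate of a Drop-seq study of brain myeloid cells. A barcode was chosen where it held at least 200 detected genes, under 10% mitochondrial UMIs, and 3 or more UMIs summed over P2ry12, Tmem119, Siglech, Sall1, Gpr34, Fcrls, Olfml3 and Slc2a5. A UMI (unique molecular identifier) marks 1 captured transcript molecule, and a barcode stands for 1 captured cell. The rule took 396 of 1000 deposited barcodes from the library labelled Met Rep 2 and 155 of 1000 from the library labelled WT Rep 2, which together are 551 of the 6000 barcodes of the series. No measured difference between the libraries entered the rule, but it did use its 8 genes and the mitochondrial transcripts, so these are given below as descriptions only.

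Both animals were female C57BL/6 mice aged 2 to 3 months, and each library came from 1 brain. The mouse of Met Rep 2 had received E0771 cells, a mouse mammary carcinoma line, by cardiac injection, and its brain was collected 2 to 3 weeks later. The mouse of WT Rep 2 was wild type with no metastases. Both brains were digested with papain, cleared on a Percoll gradient and enriched for Cd11b-positive cells on magnetic beads before droplet capture, and both libraries were read on a NextSeq 500. The other 4 libraries are the first replicate pair, WT Rep 1 and Met Rep 1, from 1 brain each, and metastasis libraries from Cx3cr1+/- and Cx3cr1-/- mice, from 2 pooled brains each.

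Microglia are the resident macrophages of the brain parenchyma, kept in their resting state by CSF1R and TGF-beta signalling and recognised by genes such as P2ry12, Tmem119 and Sall1. In disease they can lower these homeostatic genes and raise interferon-stimulated genes, antigen presentation genes of MHC class II, and a lipid and phagocytosis programme that includes Apoe, Lpl, Cst7 and Spp1. A Cd11b preparation also holds monocyte-derived macrophages, border-associated macrophages and neutrophils, and fragments of vessel or choroid plexus can be carried along.

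The file names of this pair read the opposite way to the sample labels: the file of Met Rep 2 is named as wild type and that of WT Rep 2 as metastasis. The labels are followed here, so every direction below would reverse if the file names were right. Over 1315 genes, the chosen cells of Met Rep 2 had a Spearman correlation of 0.902 with WT Rep 1 and 0.382 with Met Rep 1. They had 0.765 with the Cx3cr1+/- metastasis library and 0.740 with the Cx3cr1-/- metastasis library. Met Rep 1 was low with the rest too: 0.434 with WT Rep 1, 0.484 with WT Rep 2, 0.469 with Cx3cr1+/- and 0.495 with Cx3cr1-/-. WT Rep 2 had 0.890 with the Cx3cr1+/- metastasis library, 0.871 with the Cx3cr1-/- metastasis library and 0.728 with WT Rep 1. These correlations are across genes and describe the libraries. Rhox5, a gene of the E0771 carcinoma marker list, had 437 CPM (UMIs per 1000000 UMIs of the chosen cells) in Met Rep 1, 0 UMIs in Met Rep 2 and 4 UMIs in WT Rep 2. The whole carcinoma list (Rhox5, Krt8, Krt18, Epcam, Esx1 and Wfdc2) had 0 UMIs in Met Rep 2, which allows up to 12.2 CPM, and 25.2 CPM in WT Rep 2. It had 41.5 CPM in the naive library WT Rep 1, 851 in Met Rep 1, 36.8 in Cx3cr1+/- and 15.8 in Cx3cr1-/-. The sum in WT Rep 2 was thus below that of the naive library WT Rep 1. In WT Rep 1, Krt8, Krt18 and Epcam gave 7, 10 and 19 UMIs. Over all deposited barcodes, Rhox5 and Esx1 had 27 and 37 UMIs in WT Rep 2 and 1340 and 524 in Met Rep 1. They had 33 and 55 in Cx3cr1+/-, 11 and 19 in Cx3cr1-/-, and 0 in both WT Rep 1 and Met Rep 2. Krt18 and Epcam were highest in WT Rep 1, at 23 and 35 UMIs. Whether the labels or the file names are right was not tested.

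The libraries also differed in depth and in cell quality. The chosen cells held a median of 396.5 UMIs and 258 genes in Met Rep 2 and of 3028 UMIs and 1546 genes in WT Rep 2, for totals of 303051 and 713598 UMIs. The median mitochondrial share over all barcodes was 3.60% and 19.3%, and the mitochondrial limit removed 438 barcodes with 3 or more rule UMIs from WT Rep 2 and 8 from Met Rep 2. In Met Rep 2, 105 chosen cells (26.5%) sat exactly at 3 rule UMIs and 119 barcodes were left out at 2, against 11 (7.10%) and 10 in WT Rep 2. The pair shared no cell barcode, and no doublet caller was run. With 1 library a side there is no test between conditions and no p-value: intervals are 95% exact binomial intervals of the ratio of the summed UMIs, cover counting error only, and say nothing of the spread between mice.

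**Figure D1:**
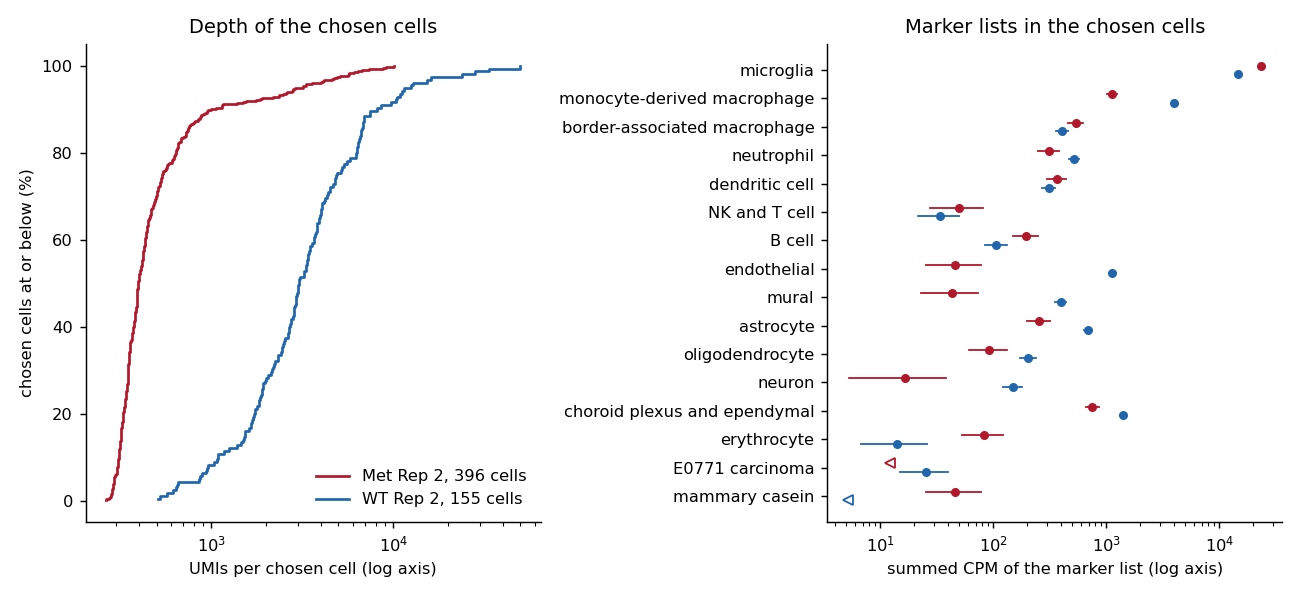
Left, the percentage of chosen cells at or below each number of UMIs; right, the summed CPM of each marker list with 95% counting intervals, both on log axes, in Met Rep 2 (red) and WT Rep 2 (blue), with an open triangle at the upper limit where a list had 0 UMIs. The Met Rep 2 cells centre on 396.5 UMIs and the WT Rep 2 cells on 3028, and the endothelial markers stand at 46.2 against 1129.5 CPM.

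Of 19361 genes in the tables, 3849 had at least 50 UMIs over both libraries and were measured; 2814 of them reached this minimum on their WT Rep 2 UMIs by themselves and 1002 on their Met Rep 2 UMIs. The ratio of CPM in Met Rep 2 to that in WT Rep 2 had a median of -0.06 on the log2 scale, and it was above 0 for 46.9% of the genes. At least 2-fold higher in Met Rep 2 were 241 genes (6.26%), and at least 2-fold lower were 485 genes (12.6%). Of the lower genes, 39 had no UMI in Met Rep 2 and enter with 3 counts in place of 0. The counting interval excluded a ratio of 1 for every one of these genes. The minimum of 50 UMIs and the 2-fold limit together bring this about, so it adds no support to the calls. The lower genes were often carried by a few WT Rep 2 cells: 146 of the 485 (30.1%) had 50% or more of their WT Rep 2 UMIs in 3 cells, against 4.70% of all measured genes. Of the 241 higher genes, 2 (0.830%) had 50% or more of their Met Rep 2 UMIs in 3 cells, against 9.28% of all measured genes.

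**Figure D2:**
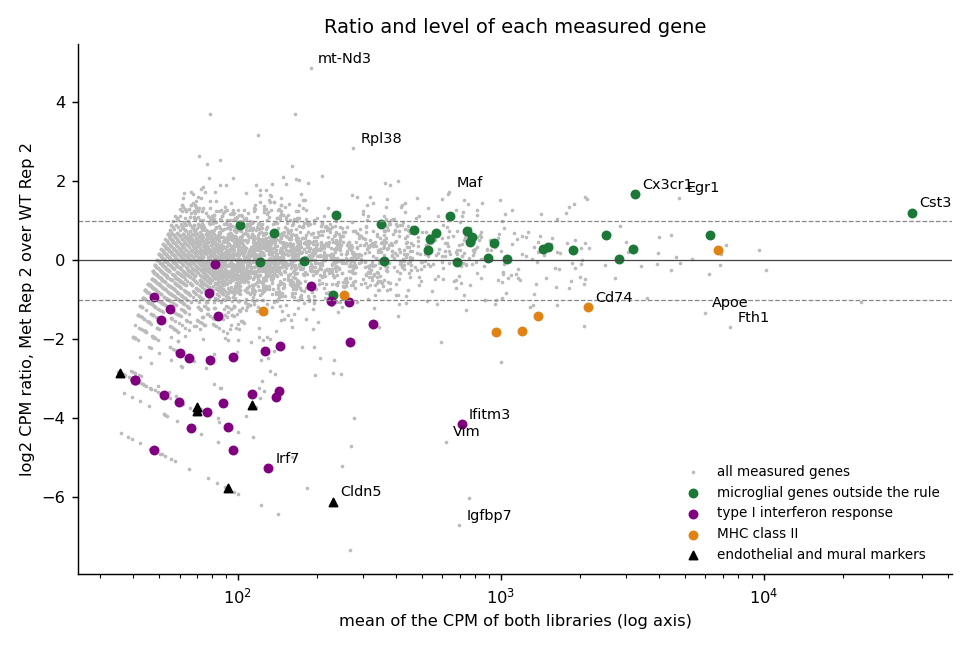
Log2 CPM ratio of Met Rep 2 over WT Rep 2 for each of the 3849 measured genes against its mean CPM on a log axis, with 3 gene lists and the vessel markers coloured, dashed lines at 2-fold, and genes with no Met Rep 2 UMI drawn at their bound. Genes below the lower dashed line (485) outnumber those above the upper one (241), and among the genes written on the plot Igfbp7 lies at -6.71 and mt-Nd3 at 4.86.

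The genes that define microglia were higher in Met Rep 2, the library labelled as metastasis-bearing. Cx3cr1, the fractalkine receptor of microglia (chr9:119901616-120069879, minus strand, GRCm38), had 1493 UMIs or 4927 CPM in Met Rep 2 and 1104 UMIs or 1547 CPM in WT Rep 2. That is 3.18-fold higher, a log2 ratio of 1.67 (1.56 to 1.78). In the other libraries Cx3cr1 stood at 4242 CPM in WT Rep 1, 570.4 in Met Rep 1, 1092 in Cx3cr1+/- and 49.0 in Cx3cr1-/-. Met Rep 2 was thus next to WT Rep 1 at the high end of the order, with WT Rep 2 below both. The genotype of the Cx3cr1+/- and Cx3cr1-/- mice alters this very gene, so their Cx3cr1 levels cannot be compared by condition.

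Cst3, which encodes the protease inhibitor cystatin C and is among the most counted microglial transcripts, had 51246 CPM in Met Rep 2 and 22245 in WT Rep 2, a log2 ratio of 1.20 (1.17 to 1.24). Sepp1, the selenium carrier selenoprotein P, had 3171 and 1075 CPM and a ratio of 1.56 (1.42 to 1.70), and it was added after its values were seen. Csf1r, the receptor for the survival factors CSF1 and IL-34, had 3046 and 1960 CPM, and Mertk, a receptor for apoptotic cells, 874 and 404 CPM. Of the 29 microglial genes outside the rule, 24 were above 0 and 4 at least 2-fold higher (Cx3cr1, Cst3, Mertk and Pmepa1). Over all measured genes these shares were 46.9% and 6.26%. The 29 genes had a median log2 ratio of 0.45 against -0.06 over all measured genes. Their summed level was 90269 CPM in Met Rep 2 and 49508 CPM in WT Rep 2. Lgmn, Rnase4, Crybb1, Cd33, Ltc4s and Gpr84 lay within 0.06 of 0, and Ecscr was lower, at 162 and 298 CPM. The median of the list stayed between 0.13 and 0.58 in 23 other ways of choosing cells and scaling.

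The 8 rule genes themselves summed to 1.07% of UMIs in Met Rep 2 and 0.481% in WT Rep 2, and all 8 were above 0. A minimum of 3 rule UMIs is a larger share of a cell of 396.5 UMIs than of one of 3028. The part of this choice of cells in the direction was not tested. The median log2 ratio of the 8 was 1.19, and 0.60 to 1.35 over the 23 alternatives. In cells of 500 to 1000 UMIs they summed to 11081 CPM in Met Rep 2 (79 cells) and 6660 CPM in WT Rep 2 (13 cells with 64 rule UMIs). P2ry12, the ADP receptor that steers microglial processes, had 2782 and 1030.0 CPM. Tmem119 had 1168 and 788 CPM, and Sall1, the transcription factor of microglial identity, 175 and 132 CPM. The fructose transporter gene Slc2a5 showed the widest gap of the 8, with 294 and 75.7 CPM.

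Among the transcription factors of microglial identity, Maf stood out in size. It encodes c-Maf (chr8:115682942-115707794, minus strand) and had 977 CPM in Met Rep 2 and 296 in WT Rep 2, with 913 in WT Rep 1, 235 in Met Rep 1, 411 in Cx3cr1+/- and 419 in Cx3cr1-/-. Its log2 ratio was 1.72 (1.46 to 1.99). Cebpa, the myeloid factor C/EBP-alpha, had 449 and 171 CPM, a ratio of 1.39. Of 15 measured factors and TGF-beta pathway genes in the list, 11 were above 0 and 2 (Maf and Cebpa) at least 2-fold higher. Over all measured genes these shares were 46.9% and 6.26%. Spi1, which encodes PU.1, the master factor of macrophages, stood at 452 and 402 CPM.

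The immediate-early genes, which respond within minutes to stimulation and also to tissue digestion, did not share a direction. Egr1 had 7144 CPM in Met Rep 2 and 2392 in WT Rep 2 (1.58, 1.49 to 1.67), and Jund, an AP-1 subunit (chr8:70698949-70700616, plus strand), had 3135 and 1029 CPM (1.61, 1.47 to 1.75). Fos was slightly lower, at 4072 and 4804 CPM (-0.24, -0.33 to -0.14), and Jun higher, at 8091 and 6237 CPM (0.38, 0.30 to 0.45). Dusp2 and Nr4a1 were at least 2-fold lower, with 42.9 and 181 CPM and with 261 and 561 CPM. In all, 16 of 26 measured members were above 0, 2 at least 2-fold higher and 2 at least 2-fold lower, with a median of 0.24. Over all measured genes these shares were 46.9%, 6.26% and 12.6%, so the counts past 2-fold are not particular to this list. Over 23 other ways of choosing cells and scaling, Jund stayed at 1.13 or more and Egr1 at 0.62 or more.

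Heat shock genes split in the same way. Dnajb1, an HSP40 co-chaperone, had 83 UMIs or 274 CPM in Met Rep 2 and 48 UMIs or 67.3 CPM in WT Rep 2 (2.03, 1.50 to 2.57), and Dnajb6 had 178 and 72.9 CPM. Hspa1a, the inducible HSP70, was lower, at 129 and 259 CPM. Hspb1, the small heat shock protein HSP27, had no UMI in Met Rep 2 and 58 in WT Rep 2, 8.21-fold lower with 3 counts in place of 0. Of 15 measured members 11 were above 0 (46.9% over all measured genes), with a median of 0.42.

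**Figure D3:**
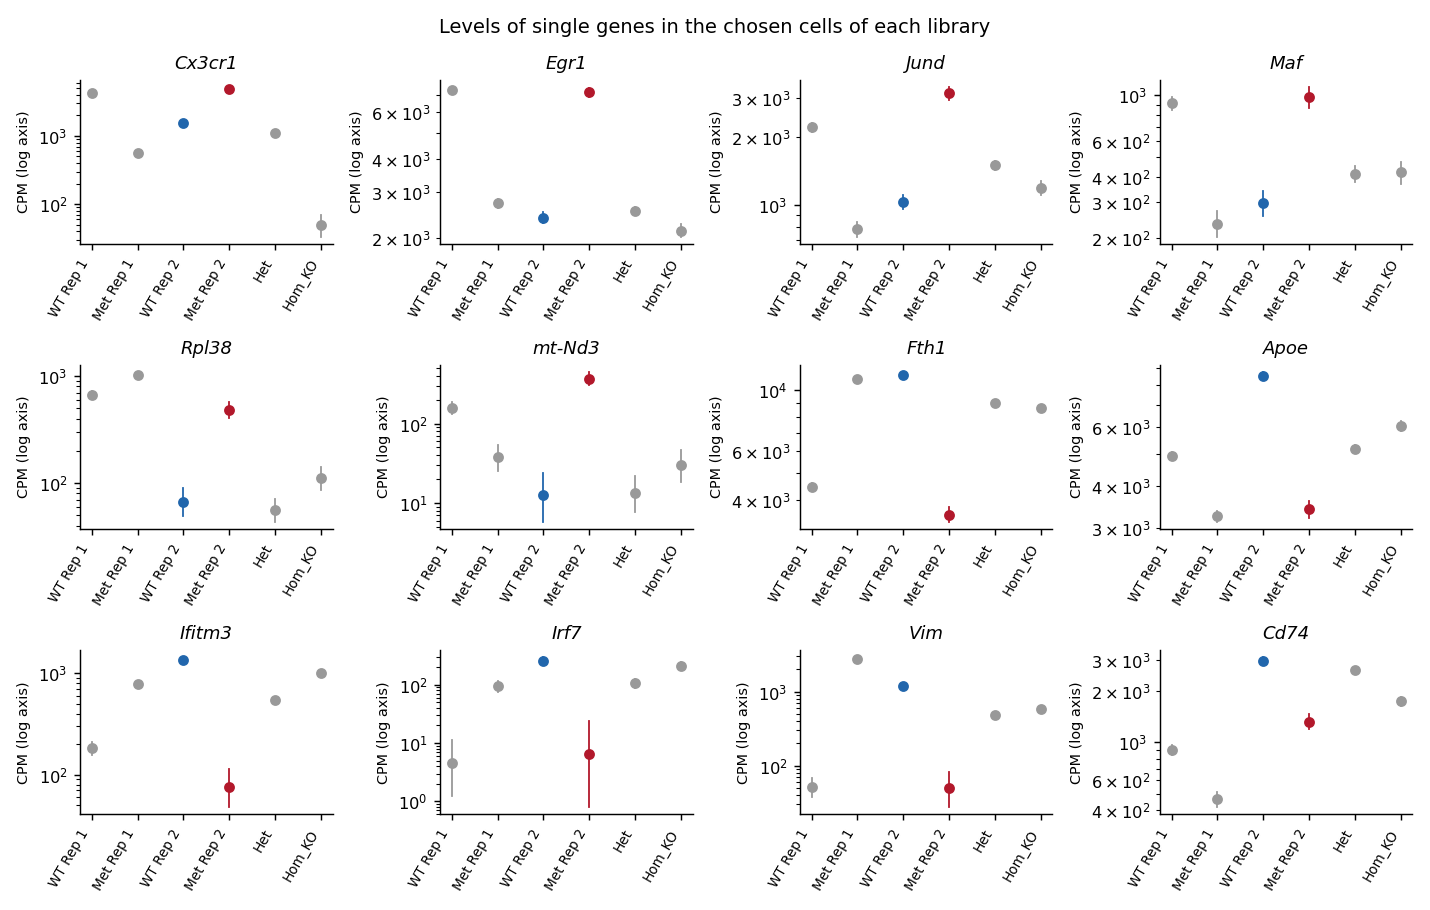
CPM of 12 genes in the chosen cells of each of the 6 libraries on log axes (Het is Cx3cr1+/-, Hom_KO is Cx3cr1-/-), with 95% Poisson counting intervals as bars, Met Rep 2 in red and WT Rep 2 in blue. Cx3cr1 is at 4927 CPM in Met Rep 2 and 1547 in WT Rep 2, while Ifitm3 is at 75.9 and 1342.

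Other genes with large ratios were spread over unrelated roles. Tssc4, a spliceosome assembly factor, had 271 CPM in Met Rep 2 and 51.8 in WT Rep 2 (2.38), and its other 4 libraries lay between 41.0 and 63.3. Gfm2, a mitochondrial ribosome recycling factor, had 339.9 and 77.1 CPM (2.14). Rnf19b, a ubiquitin ligase, had 650.1 and 161 CPM (2.01), Basp1, a membrane-associated signalling protein, 577 and 149 (1.96), and Tsc22d4 601 and 159.8 (1.91). Met Rep 2 was the highest of the 6 libraries for Tssc4, Gfm2, Rnf19b, Basp1 and Tsc22d4 alike. Stx2, a syntaxin of membrane fusion, rested on 39 and 17 UMIs (2.43, 1.58 to 3.35). Wdr89, added after its values were seen, had 719 and 241 CPM and stayed at 1.40 or more in all 23 alternatives.

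The widest ratio on the higher side belonged to mt-Nd3, a complex I subunit encoded by the mitochondrial genome (chromosome M, bases 9459 to 9806, plus strand). It had 111 UMIs or 366 CPM in Met Rep 2 and 9 UMIs or 12.6 CPM in WT Rep 2, a log2 ratio of 4.86 (3.88 to 6.03). WT Rep 1 had 158 CPM and the remaining libraries 13.4 to 37.4 CPM. mt-Nd1 was also higher (2452 and 1075 CPM), while the mitochondrial ribosomal RNA mt-Rnr2 was lower (15179 and 31789.6 CPM). The mitochondrial share was part of the rule, and the transcripts moved in both directions: 5 of 10 measured were at least 2-fold higher and 1 at least 2-fold lower. Over all measured genes these shares were 6.26% and 12.6%.

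Ribosomal protein transcripts were level in sum, at 43290 CPM in Met Rep 2 and 43456 CPM in WT Rep 2, but their members parted. Rpl38, a protein of the large subunit (chr11:114668524-114672331, plus strand), had 482 and 67.3 CPM (2.84, 2.36 to 3.34), with 671 in WT Rep 1, 1011 in Met Rep 1, 56.0 in Cx3cr1+/- and 111 in Cx3cr1-/-. Rps28 (241 and 63.1 CPM), Rpl36 (102 and 30.8), Rpl37 (957 and 299.9), Rpl30 (551 and 188) and Rpl41 (1079 and 373) were higher too. Rplp0 (828 and 1820), Rps2 (577 and 1162) and Rpl10a (39.6 and 88.3) were lower. Of 64 measured members 12 were at least 2-fold higher and 4 at least 2-fold lower (6.26% and 12.6% over all measured genes), with a median of 0.12. In the GENCODE annotation, the 12 higher members had a median transcript length of 542 bases, the 47 between had 712 and the 4 lower had 812. Across the 3641 measured genes with a length, the order was the opposite: the 1215 shortest genes had a median ratio of -0.15 and the 1214 longest 0.10. Ribosomal proteins have many processed pseudogenes, so reads may have been divided among copies, and these values are uncertain for that reason.

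Many of the lowest ratios belonged to genes of blood vessels. Igfbp7, an endothelial secreted protein, had 4 UMIs in Met Rep 2 and 984 in WT Rep 2 (13.2 and 1379 CPM), a log2 ratio of -6.71 (-8.59 to -5.35). Cldn5, the tight junction protein of the blood-brain barrier, had 2 and 325 UMIs (-6.11, -9.16 to -4.24). Ctla2a had 1 and 379 UMIs (-7.33, -12.64 to -4.84) and Egfl7, an endothelial growth factor, 1 and 200 UMIs (-6.41, -11.72 to -3.91). Pglyrp1, Tmem252 and Ramp2 had no UMI in Met Rep 2 and 143, 134 and 121 UMIs in WT Rep 2. With 3 counts in place of 0 these are 20.2-fold, 19.0-fold and 17.1-fold lower. The upper limits of the log2 ratios were -4.02, -3.93 and -3.78. Apod, a lipocalin, had 7 and 1063 UMIs (-6.01).

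These transcripts sat in very few WT Rep 2 cells. Of the WT Rep 2 UMIs, 3 cells held 94.4% for Igfbp7, 97.6% for Apod, 96.3% for Cldn5 and 95.3% for Lcn2, the iron-binding lipocalin of acute inflammation (2 and 257 UMIs). The endothelial marker list stood at 46.2 CPM (14 UMIs) in Met Rep 2 and 1129.5 CPM in WT Rep 2, and 13 WT Rep 2 cells but 0 Met Rep 2 cells held 3 or more endothelial UMIs. Those 13 cells held 25.6% of all chosen UMIs of WT Rep 2. Slco1a4, Cdh5, Itm2a, Slco1c1 and Spock2 of the endothelial list were at 0 UMIs in Met Rep 2.

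Markers of other cells differed as well. Mural cell markers summed to 42.9 CPM in Met Rep 2 and 394 in WT Rep 2, astrocyte markers to 254 and 689.5, and choroid plexus markers to 752 and 1411. Neuron markers summed to 16.5 and 149.9 CPM, but Npy alone gave 94 of the WT Rep 2 UMIs, and without it the sums were 16.5 and 18.2 CPM. Markers of monocyte-derived macrophages summed to 1129 CPM in Met Rep 2 and 3955 in WT Rep 2: Ccr2, the monocyte chemokine receptor, had 6 and 94 UMIs, Plac8 5 and 155 UMIs, and Ly6c2 1 and 172 UMIs (-6.19, -11.50 to -3.69). Arg1 had 0 UMIs in both. Ttr, the choroid plexus transthyretin, had 637 and 1274 CPM, with a log2 interval from -1.23 to -0.77, but 3 WT Rep 2 cells held 90.4% of its UMIs there, and its ratio was 2.31 with the 3 highest cells for the gene removed from each library. Border-associated macrophage markers summed to 538 and 406 CPM and did not share a direction: Mrc1, the mannose receptor, had 60 and 41 UMIs (198 and 57.5 CPM; 1.78, 1.19 to 2.39), while Ms4a7 had 12 and 115 UMIs. At least 3 UMIs of another cell type were found in 66 of 396 Met Rep 2 cells and in 105 of 155 WT Rep 2 cells, which are deeper. The part of these cells in the ratios was not tested, and values without them are given beside several of the lists that follow.

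The type I interferon response, the set of antiviral genes switched on by interferon alpha and beta, was lower in Met Rep 2 throughout. Irf7, the amplifier of type I interferon production (chr7:141262706-141266481, minus strand), had 2 UMIs in Met Rep 2 and 181 in WT Rep 2, or 6.60 and 254 CPM, with a log2 ratio of -5.26 (-8.32 to -3.39). The other libraries had 4.49 CPM in WT Rep 1, 94.1 in Met Rep 1, 107 in Cx3cr1+/- and 210.3 in Cx3cr1-/-. Ifitm3, a membrane restriction factor that vessels also express, had 23 UMIs or 75.9 CPM in Met Rep 2 and 958 UMIs or 1342 CPM in WT Rep 2 (-4.14, -4.81 to -3.55). Over all chosen cells, Met Rep 2 and WT Rep 1 were the lowest libraries for Irf7 and Ifitm3, and WT Rep 2 the highest. In WT Rep 2, the 13 cells with 3 or more endothelial UMIs held 53.0% of the Irf7 UMIs and 66.5% of the Ifitm3 UMIs. They held 25.6% of all chosen UMIs, so the rank of WT Rep 2 rests in large part on these cells.

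Ifi27l2a had 102 and 430.2 CPM (-2.07, -2.65 to -1.54), and Bst2, which encodes the virus tether tetherin, 162 and 490.5 CPM (-1.60, -2.06 to -1.17). Isg20, an antiviral exonuclease, had 0 and 131 UMIs, 18.5-fold lower with 3 counts in place of 0 (upper limit of the log2 ratio -3.89). Irf9 itself was level, at 79.2 and 84.1 CPM (-0.09, -0.83 to 0.62). All 32 measured members were below 0 and 28 were at least 2-fold lower, with a median of -2.51. However, 31 of the 32 reached the minimum of 50 UMIs on their WT Rep 2 UMIs by themselves and 1 on its Met Rep 2 UMIs, so the count is a description of genes that had to be present in WT Rep 2. Summed over all 39 members with no minimum, the list had 1455 CPM in Met Rep 2 and 7147 CPM in WT Rep 2, a log2 ratio of -2.30 (-2.44 to -2.16).

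The promoters of several of these genes hold the interferon-stimulated response element, the sequence bound by IRF proteins. Windows from RefSeq promoters (GRCm38.p6) of some members at least 2-fold lower in Met Rep 2 are shown, all upstream of the start. They run 5′ to 3′ on the strand of the gene. Capitals mark GAAA, any 2 bases, GAAA; a match on the opposite strand reads TTTC, any 2 bases, TTTC, and matches that overlap run together.
Ifit1, chr19:34640765-34640833, plus strand: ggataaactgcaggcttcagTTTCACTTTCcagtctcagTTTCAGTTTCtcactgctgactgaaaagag
Ifit3, chr19:34583353-34583436, plus strand: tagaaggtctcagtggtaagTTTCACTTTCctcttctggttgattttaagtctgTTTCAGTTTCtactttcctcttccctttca
Isg15, chr4:156200855-156200916, minus strand: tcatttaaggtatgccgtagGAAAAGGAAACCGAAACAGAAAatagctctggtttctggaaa
Oas1a, chr5:120907526-120907565, minus strand: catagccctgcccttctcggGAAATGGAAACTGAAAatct
Bst2, chr8:71537567-71537622, minus strand: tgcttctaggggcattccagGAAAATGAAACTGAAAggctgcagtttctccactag
Rsad2, chr12:26456543-26456592, minus strand: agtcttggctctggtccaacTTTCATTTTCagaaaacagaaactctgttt

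Of the 24 measured members with a promoter entry, 13 (54.2%) held the element within the 300-base window, against 4.47% of 2950 measured genes and 3.44% of all 32851 promoters. None of 28 rule and other microglial genes held it. Ifit1, which encodes a binder of viral RNA, had 0 and 58 UMIs. Ifit3 had 2 and 132 UMIs (6.60 and 185 CPM), Isg15, the ubiquitin-like modifier, 29.7 and 161 CPM, and Rsad2, which encodes viperin, 23.1 and 255 CPM. Oas1a, an RNA sensor, had no UMI in Met Rep 2 and 85 in WT Rep 2. A match describes letters in the window and was not tied to binding in these cells.

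The interferon gap narrowed in the cells without markers of other types. The 13 WT Rep 2 cells with 3 or more endothelial UMIs held 54.0% of the list's WT Rep 2 UMIs, and for Ifitm3 66.5%. In cells without 3 UMIs of another cell type the list summed to 1423 CPM in Met Rep 2 and 2005 CPM in WT Rep 2. The median ratio was -0.54 over the 6 members still measured once every cell with an endothelial or mural UMI was removed, an alternative added after seeing the data, and -0.83 over 6 members where the rule genes had to make up 0.5% of UMIs. In cells of 500 to 1000 UMIs the list stood at 1323 CPM in Met Rep 2 (79 cells, 1029 to 1674) and 2706 in WT Rep 2 (13 cells with 26 list UMIs, 1768 to 3965). In cells of 1000 to 2000 UMIs it stood at 1178 (10 cells with 17 list UMIs, 686 to 1886) and 1837 (30 cells, 1473 to 2263), with intervals that overlap.

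**Figure D4:**
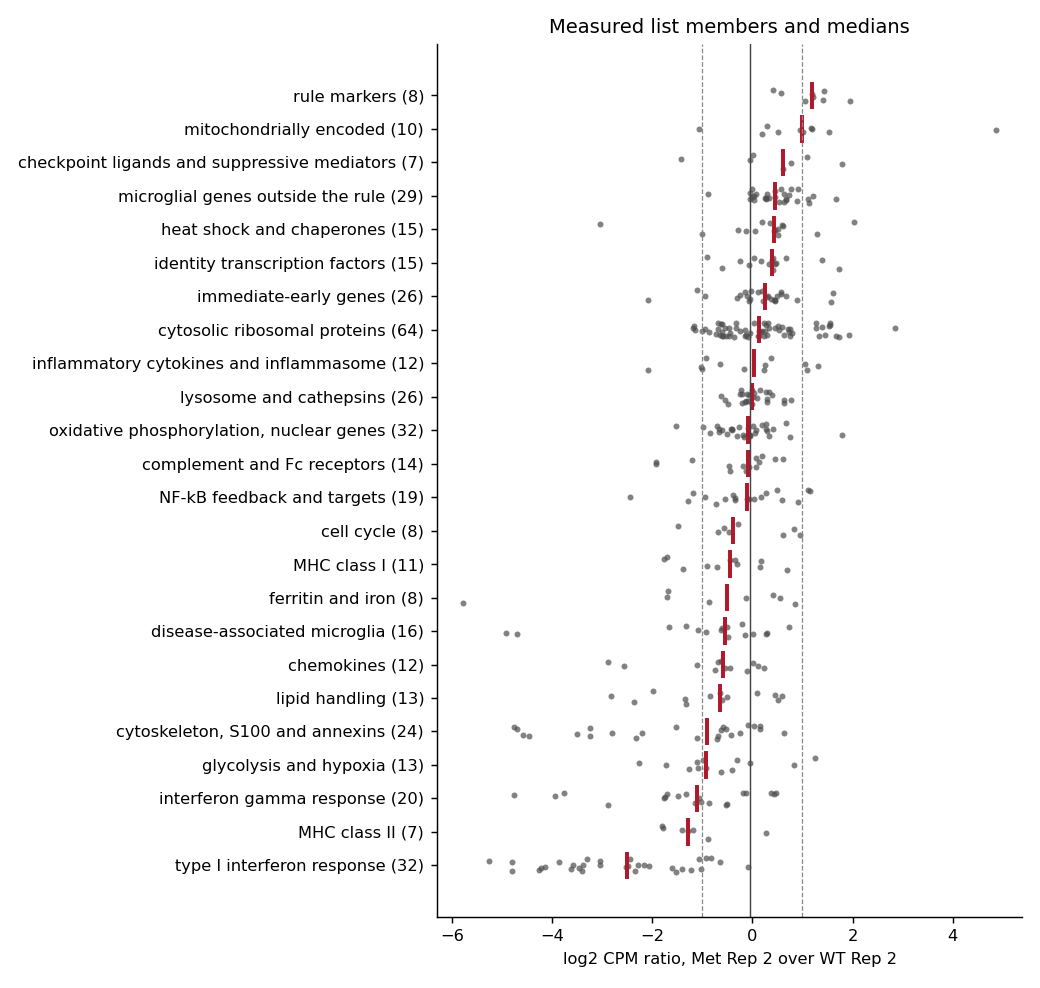
Log2 CPM ratio of Met Rep 2 over WT Rep 2 for the measured members of each gene list (number in brackets), 1 point a gene and a red bar at the list's median; the solid line is the median of all measured genes, -0.06, and the dashed lines are 2-fold. All 32 type I interferon points lie below 0 with a median of -2.51, and the microglial genes outside the rule centre on 0.45.

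Genes induced by interferon gamma were lower with more exceptions. Cxcl10, a chemokine for T cells, had 10 and 174 UMIs (33.0 and 244 CPM, -2.89, -3.97 to -1.97), and Gbp2, a guanylate-binding protein, had 13.2 and 202 CPM. Irf8, Tapbp and Icam1 were above 0. Over 20 measured members, 3 were above 0 and 12 at least 2-fold lower, with a median of -1.10, and the sums were 2808 and 4563 CPM. The median was 0.31 without cells holding 3 UMIs of another type.

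MHC class II genes, which present extracellular peptides to CD4+ T cells, were lower in the pooled sums. Cd74, the invariant chain, had 1317 CPM in Met Rep 2 and 2988 in WT Rep 2 (-1.18, -1.34 to -1.03). H2-Ab1 had 762 and 2009.5 CPM (-1.40, -1.61 to -1.20), H2-Aa 541 and 1869 (-1.79), and H2-Eb1 426 and 1495 (-1.81). Ctss, the cathepsin that trims the invariant chain, was the exception, at 7312 and 6078 CPM (0.27). The median of the 7 measured members was -1.28.

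The direction of the class II genes depended on which cells entered. The median of the list was 0.86 in cells of 500 to 2000 UMIs and 0.77 without cells holding 3 UMIs of another type, and Cd74 was at 1.26 and 1.81. The median cell held 9464 CPM of the list in Met Rep 2 and 8171 CPM in WT Rep 2, the reverse of the sums. Ctss, however, gave 2216 of the list's 3231 UMIs in Met Rep 2 and 4337 of 10705 in WT Rep 2. Cd74 was found in 37.6% of Met Rep 2 cells and H2-Aa in 18.2%, so the median cell describes mainly Ctss. MHC class I genes differed less: H2-K1 had 1261 and 1710 CPM, H2-D1 1383 and 2245, and B2m, the light chain, 5461 and 6900. Of 11 measured class I and peptide-loading genes, 3 were above 0 and 3 at least 2-fold lower (H2-Q6, H2-Q7 and H2-M3), and paralogs of this family can share reads.

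Of the disease-associated microglia list, 16 of 26 genes were measured, 15 of them on their WT Rep 2 UMIs alone and 11 on their Met Rep 2 UMIs. Of the 16, 4 were above 0, none at least 2-fold higher and 5 at least 2-fold lower (Apoe, Cst7, Lgals3, Cd52 and Lyz2). Over all measured genes these shares were 46.9%, 6.26% and 12.6%. The median of the list was -0.56. Apoe, the main lipid carrier of the brain, had 3405 CPM in Met Rep 2 and 8527 in WT Rep 2 (-1.32, -1.42 to -1.23). Lyz2, lysozyme, had 993 and 3143 CPM (-1.66), and Cst7, the cathepsin inhibitor cystatin F, had 1 and 71 UMIs. Apoe was at 0.15 in cells of 500 to 2000 UMIs and at 0.60 without cells holding 3 UMIs of another type, and Lyz2 at 1.14 in the latter. Trem2 and Tyrobp, the receptor and adaptor that switch the programme on, were near level: Trem2 had 1584 and 1306 CPM (0.28, 0.12 to 0.44) and Tyrobp 2049 and 2026 CPM (0.02, -0.12 to 0.15).

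Genes of lipid handling, a list that also holds Apoe, were mostly lower in the pooled sums. Pltp, a phospholipid transfer protein, had 26.4 and 136 CPM, Pla2g7, a phospholipase of oxidised lipids, 36.3 and 143, and Plin2, the coat of lipid droplets, 56.1 and 143. Apoc2, the activator of lipoprotein lipase, had no UMI in Met Rep 2 and 50 in WT Rep 2, 7.08-fold lower with 3 counts in place of 0. The cholesterol exporters Abca1 and Abcg1 were higher, at 241 and 175 CPM and at 185 and 123 CPM. Over the 13 measured members, Apoe among them, 4 were above 0 and 5 at least 2-fold lower, with a median of -0.65. Over all measured genes these shares were 46.9% and 12.6%. Of the 13 members, 11 reached 50 UMIs on their WT Rep 2 UMIs alone and 4 on their Met Rep 2 UMIs. The median cell held 3795 CPM of the list in Met Rep 2 and 3214 CPM in WT Rep 2, and without cells holding 3 UMIs of another type the median ratio was 0.15 over 3 members.

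Several genes of the cytoskeleton, S100 and annexin list had ratios far below 0. Vim, the intermediate filament vimentin, had 15 UMIs or 49.5 CPM in Met Rep 2 and 849 UMIs or 1189.8 CPM in WT Rep 2 (-4.59, -5.43 to -3.86). Met Rep 1 had 2786 CPM and WT Rep 1 51.6. Lgals3, galectin-3, had 19.8 and 517 CPM (-4.71, -6.16 to -3.57), with 2279 in Met Rep 1 and 30.3 in WT Rep 1. S100a6 (23.1 and 219 CPM), S100a4 (16.5 and 156), Anxa2 (9.90 and 219), Lgals1 (19.8 and 223) and Capg (33.0 and 231) moved alike. Actb, at 7207 and 6508 CPM, did not. Of 24 measured cytoskeleton, S100 and annexin genes, 12 were at least 2-fold lower (12.6% over all measured genes), with a median of -0.90. Of the 24, 23 reached 50 UMIs on their WT Rep 2 UMIs alone and 12 on their Met Rep 2 UMIs. In WT Rep 2, 59.1% of the Vim UMIs and 39.8% of the Lgals3 UMIs were in 3 cells, and the 13 cells with 3 or more endothelial UMIs held 63.3% and 17.1%. Without cells holding 3 UMIs of another type, the list summed to 21420 CPM in Met Rep 2 and 18309 CPM in WT Rep 2, the reverse of the direction in all chosen cells.

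Fth1 and Rgs1 kept a 2-fold gap in every one of the 23 alternatives, out of 13 lower genes measured in all of them. Fth1, the ferritin heavy chain that stores iron (chr19:9980598-9985098, plus strand), had 1070 UMIs or 3531 CPM in Met Rep 2 and 8120 UMIs or 11379 CPM in WT Rep 2 (-1.69, -1.78 to -1.60). The other libraries stood at 4455 CPM in WT Rep 1, 10993 in Met Rep 1, 8981 in Cx3cr1+/- and 8624 in Cx3cr1-/-, and over the alternatives the ratio ran from -1.87 to -1.21. Rgs1, a regulator of chemokine receptor signalling (chr1:144242296-144249242, minus strand) that was added after its values were seen, had 287 and 1708 CPM (-2.57, -2.90 to -2.26). Rgs1 stood at 469 CPM in WT Rep 1, 1094 in Met Rep 1, 1455 in Cx3cr1+/- and 1066 in Cx3cr1-/-, and ran from -3.10 to -2.34. For both genes Met Rep 2 and WT Rep 1 were the lowest of the 6 libraries. Ftl1, the ferritin light chain, did not follow Fth1: it had 135 and 102 CPM (0.40, -0.19 to 0.97). Both ferritin genes have many pseudogenes, which could take part of their reads.

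Inflammatory genes had no common direction. Il1b had 228 CPM in Met Rep 2 and 959.9 in WT Rep 2 (-2.08, -2.45 to -1.72), with 2847 in Met Rep 1 and 308 in WT Rep 1, and Tnf had 346 and 705 CPM (-1.02, -1.34 to -0.72). The inflammasome sensor Nlrp3 was higher, at 531 and 256 CPM (1.05, 0.74 to 1.36), as was Casp4, the caspase of the non-canonical pathway, at 313 and 126 CPM (1.31, 0.88 to 1.75). Tgfb1, a secreted cytokine, was higher too, at 208 and 98.1 CPM, and Il1a had 663 and 561 CPM. Wfdc17, a secreted protein of activated macrophages, had 294 and 156 CPM (0.92, 0.50 to 1.33), with 87.6% of its Met Rep 2 UMIs in 3 cells. Of the 12 measured cytokine and inflammasome genes, 6 were above 0, 3 at least 2-fold higher and 2 at least 2-fold lower. Over all measured genes these shares were 46.9%, 6.26% and 12.6%. The median of the list was 0.03, and -0.62 over 6 members without cells holding 3 UMIs of another type.

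NF-kB genes lay on both sides too. Nfkbia, the inhibitor that NF-kB itself induces, had 2462 and 4758 CPM (-0.95, -1.07 to -0.84), while the subunits Nfkb1 (214 and 96.7 CPM; 1.15, 0.64 to 1.66) and Rel (290 and 134 CPM) were higher. Ptgs2, Gadd45b and Plaur were at least 2-fold lower. Of 19 measured members, 2 were at least 2-fold higher, 3 at least 2-fold lower and 8 above 0, near the shares over all measured genes (6.26%, 12.6% and 46.9%), and the median was -0.11. Ccrl2, a chemerin-binding receptor added after its values were seen, had 363 and 781 CPM (-1.10, -1.41 to -0.81). Chemokines were lower or level: Ccl3 had 2297 and 3136 CPM, Ccl4 3775 and 4060, and Cxcl2 739 and 687. Of 12 measured chemokines 3 were above 0 and 3 at least 2-fold lower (Cxcl1, Cxcl10 and Cxcl16).

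The lysosome and complement genes were alike in the libraries. None of 26 measured lysosomal genes differed 2-fold, and their median was -0.01 with 12 above 0. Ctsd, the aspartic protease cathepsin D, had 5389 and 5313 CPM (0.02, -0.06 to 0.10), and Lamp2 413 and 416 CPM. The complement C1q chains had 4768 and 4514 CPM for C1qa (0.08, -0.01 to 0.17), 6537 and 7099 for C1qb (-0.12, -0.19 to -0.04) and 4676 and 4903 for C1qc (-0.07, -0.16 to 0.02). Among 14 complement and Fc receptor genes, Fcgr2b (198 and 460 CPM), Fcgr4 (19.8 and 75.7) and Cfp (16.5 and 63.1) were at least 2-fold lower.

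Genes of glycolysis and the hypoxia response were mostly lower in the pooled sums. Ldha had 125 and 265 CPM (-1.08, -1.62 to -0.57), Pkm 175 and 346, Eno1 82.5 and 177, and the glucose transporter Slc2a1 59.4 and 143. The collagen hydroxylase P4ha1 was higher, at 201 and 84.1 CPM (1.26, 0.72 to 1.80). Over 13 measured genes, 2 were above 0 and 5 at least 2-fold lower, with a median of -0.92 that ran from -0.98 to 0.11 over the alternatives. Nuclear genes of oxidative phosphorylation had a median of -0.09 over 32 members, with Cox7c (188 and 54.7 CPM; 1.78, 1.17 to 2.41) and Cox5a (82.5 and 237 CPM; -1.52, -2.19 to -0.91) the only ones past 2-fold. Both encode subunits of cytochrome c oxidase.

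Among mediators that restrain immune cells, Sirpa and Entpd1 were higher by less than 2-fold (799 and 523 CPM, 587 and 345 CPM). Lgals9, galectin-9, was lower (221 and 591 CPM, log2 ratio -1.42, -1.81 to -1.04), and Havcr2 was level (248 and 247 CPM). Pdcd1lg2, Ido1 and Arg1 had no UMI in either library. Cycling genes were sparse in the libraries, with Mki67 at 3.30 and 40.6 CPM and 8 of 26 list members measured.

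**Figure D5:**
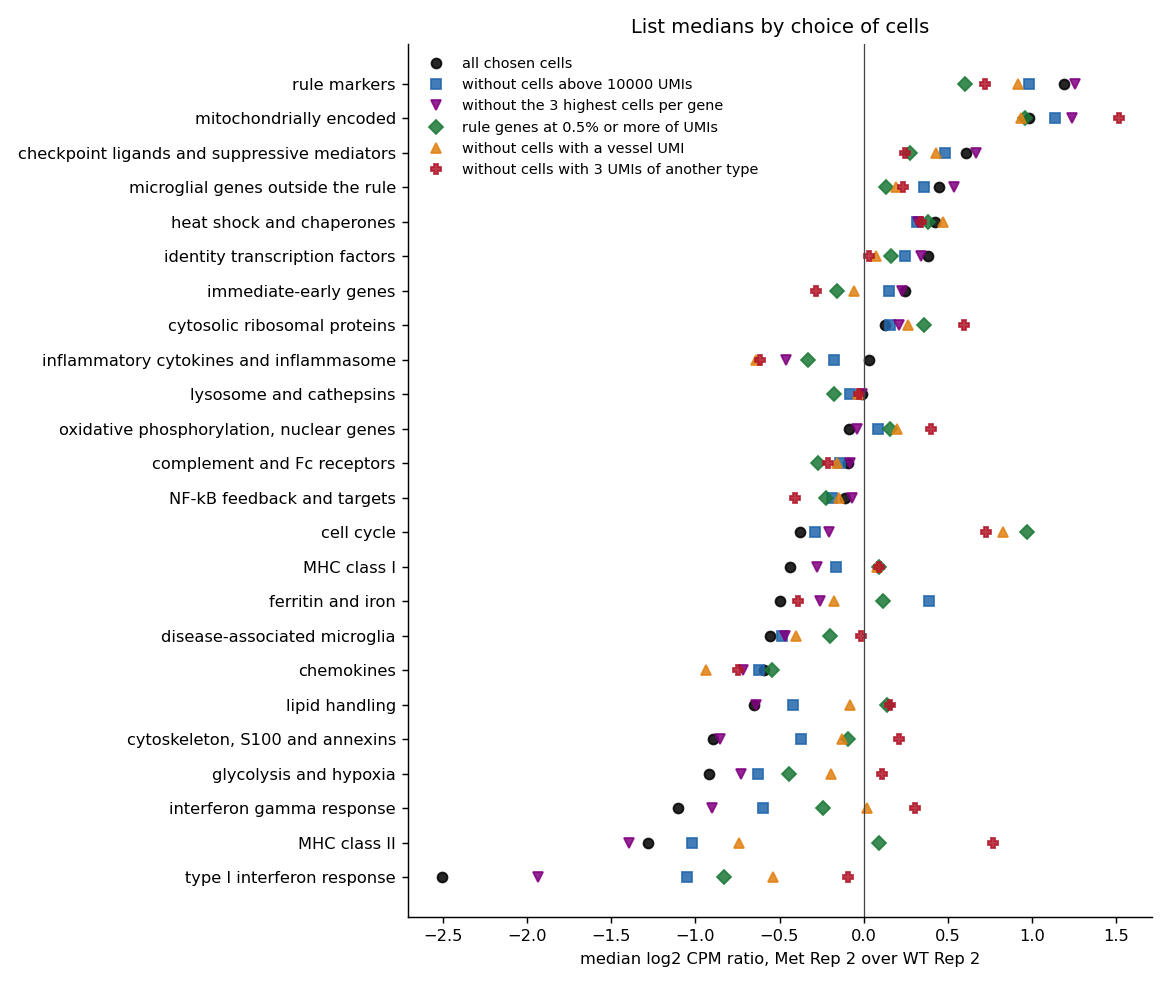
Median log2 CPM ratio of Met Rep 2 over WT Rep 2 for each gene list, with 1 symbol for all chosen cells and 1 for each of 5 other choices of cells. The microglial list stays above 0 in all 6, and MHC class II crosses 0, from -1.28 to 0.77. The type I interferon list goes from -2.51 over 32 members to -0.09, which is also the highest value of its member Lgals3bp. It stays below 0, but other choices of cells left fewer members measured.

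The number of lower genes differed between choices of cells, which also left different genes measured. In cells of 500 to 2000 UMIs, 89 in Met Rep 2 and 43 in WT Rep 2, 44 genes were at least 2-fold higher and 19 lower among 314 measured. Without cells holding 3 or more UMIs of another type, 84 were higher and 34 lower among 920 measured. Higher genes were 33.2% of those past 2-fold in the pooled sums and 69.8% to 71.2% in those selections and in that without endothelial or mural UMIs. With all chosen cells and a minimum of 200 UMIs per gene, they were 46.6%, among 776 measured genes. The parts of the cells and of the genes left measured in these shares were not tested. Over all chosen cells and the 23 alternatives, the medians of 17 of the 24 lists lay on both sides of 0, among them the immediate-early list (-0.40 to 0.40), the lipid list (-0.92 to 0.30), the cytoskeleton, S100 and annexin list (-1.22 to 0.45), the disease-associated list (-0.93 to 0.09), the glycolysis list, the ferritin list (-1.69 to 0.41), the identity factors (-0.26 to 0.54) and MHC class I (-0.64 to 0.09). Vim (-5.39 to -1.77), Irf7 (-5.43 to -2.81) and Ifitm3 (-4.42 to -1.85) stayed below 0 wherever they were measured. Within cells of 500 to 1000 UMIs, Cx3cr1 stood at 5004 CPM in Met Rep 2 (79 cells, 4415 to 5649) and 1977 in WT Rep 2 (19 UMIs in 13 cells, 1190 to 3088). Within cells of 1000 to 2000 UMIs it stood at 3603 (52 UMIs in 10 cells, 2691 to 4725) and 2067 (30 cells, 1680 to 2516). Cst3 stood at 79084 and 23207 CPM in the shallower cells and at 50655 and 30832 CPM in the deeper ones. Of the 241 higher genes, 24 were measured under every alternative, and Wdr89, Cx3cr1, Maf, Sepp1 and Jund kept a 2-fold gap in all of them. Of the lower genes, only Rgs1 and Fth1 did.

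The first replicate pair shares no library with the second. In Met Rep 1 against WT Rep 1, 1371 of 5382 measured genes (25.5%) were at least 2-fold higher and 636 (11.8%) at least 2-fold lower, with a median of 0.34. Among the 3676 genes measured in both pairs, 232 were higher in the second pair. Of these, 84 (36.2%) were lower in the first pair and 11 (4.74%) higher, which is 15.9% of the 528 lower and 1.56% of the 707 higher genes there. Of the 394 lower in the second pair, 211 (53.6%) were higher in the first and 16 (4.06%) lower, which is 29.8% of the 707 and 3.03% of the 528.

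Of 144 named genes measured in both pairs, 105 had opposite signs and 39 the same sign, and of the 39 at least 2-fold apart in both pairs, 36 had opposite signs. Cx3cr1 had a log2 ratio of 1.67 in the second pair and -2.89 in the first, Maf 1.72 and -1.96, and Egr1 1.58 and -1.43. Vim had -4.59 and 5.75, Lgals3 -4.71 and 6.23, Irf7 -5.26 and 4.39, Fth1 -1.69 and 1.30, and Rgs1 -2.57 and 1.22. Among those with the same sign, Cd74 was at -1.18 and -0.95, Apoe at -1.32 and -0.60, Rpl38 at 2.84 and 0.59, and Usmg5 at 2.64 and 1.58. The first pair was read on another sequencer model. Biology of the individual mice, the assignment of labels and depth cannot be told apart with 1 library a side.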

How the data were processed

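The authors deposited 1 table of UMI counts per library, with genes in rows and 1000 barcodes in columns; the submitters' processing notes name STAR, Seurat and mm10, with roles, versions and settings not given in the sources used here. How the 1000 barcodes were picked is also not given in the sources used here. Counts were used as deposited and summed over the chosen barcodes of each library. CPM are UMIs per 1000000 summed UMIs. A gene was measured with at least 50 UMIs over both libraries, and a ratio against 0 UMIs was set against a floor of 3 counts per library. Intervals, tested on simulated data, are 95% exact binomial (Poisson for levels). Counts of 3′ ends are not compared between genes.

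Genes were named by rule: in each direction the 15 genes whose counting bound lies farthest from equality, with UMIs in at least 5 chosen cells of the higher library and no predicted genes; in each of 24 lists the 4 members with most UMIs and the highest and lowest ratio; and Cx3cr1, Ttr, Apoe, Wfdc17, Rhox5 and the rule genes. Other list members are examples chosen after their values were seen, and a few genes of the lists are not reported here. The members and lists were chosen with earlier results of these data known. Gene positions and transcript lengths are from GENCODE (GRCm38). Promoters are from RefSeq and span 250 bases before to 50 bases after the start, with chromosome 18 left out. Tools were Python 3.11.15, numpy 2.4.6, pandas 2.3.3, scipy 1.17.1, matplotlib 3.10.9 and R 4.3.3; edgeR 4.0.16 and DESeq2 1.42.0 gave scaling factors for 2 alternatives and no test.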

Additional observations from a re-analysis of the deposited data

Results flagged for a closer look

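The following marker sums in the Met Rep 2 barcodes left out by the rule were at least 2-fold above those in the left-out barcodes of WT Rep 2, with counting intervals that did not meet. Erythrocyte markers stood at 9593 CPM against 60.5, with 1784 of 1809 UMIs in 1 barcode. Markers of NK and T cells stood at 509 CPM against 173, with 82 of 96 UMIs in 1 barcode. Mammary casein markers stood at 259.8 CPM against 3.30, with 30 of 49 UMIs in 1 barcode. B cell markers stood at 292 CPM against 93.5, spread over 50 barcodes with at most 3 UMIs each. Choroid plexus and ependymal markers stood at 1739 CPM against 812, with UMIs in 200 barcodes. Microglia markers outside the rule stood at 21785 CPM against 10262, with UMIs in 595 left-out barcodes of Met Rep 2.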

How the results depend on the processing

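No paired analysis was possible because each side of the comparison holds 1 library and the ratio comes from no test; for the same reason no replicate could be left out. Main counts were 241 genes at least 2-fold higher and 485 lower. The gene minimum moved both: 476 higher and 1178 lower at 20 UMIs, 55 and 63 at 200 UMIs, 963 and 1934 at 1 UMI. So did the choice of cells: 135 and 120 with rule genes at 0.5% or more of UMIs, 44 and 19 in cells of 500 to 2000 UMIs, and 84 and 34 without cells holding 3 UMIs of another type. With at least 6 rule UMIs the counts were 161 and 280, and without the 5% of cells with most UMIs 162 and 266. Of the alternatives chosen after seeing the data, removing cells with an endothelial or mural UMI left 142 higher and 60 lower, and removing cells above 10000 UMIs left 195 lower. Fewer cells also left fewer genes measured, 314 in cells of 500 to 2000 UMIs.

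Signs that turned, as log2 ratios, were these. With rule genes at 0.5% or more of UMIs, the MHC class II median was 0.091, Ttr 2.36, Cd74 0.37, H2-Ab1 0.21 and H2-Eb1 0.30. In cells of 500 to 2000 UMIs, the MHC class II median was 0.86, Ttr 1.58, Apoe 0.15, Cd74 1.26, H2-Aa 0.82 and H2-Ab1 0.90. Without cells holding 3 UMIs of another type, the interferon gamma median was 0.31, the MHC class II median 0.77, Ttr 2.00, Apoe 0.60, Cd74 1.81, H2-Aa 1.41, H2-Ab1 0.43, H2-Eb1 1.11 and Lyz2 1.14. Without the 3 cells highest for the gene, Ttr was 2.31. Without cells with an endothelial or mural UMI, the interferon gamma median was 0.023 and Ttr 1.68. Cfp was 0.057 as a mean of CPM per cell. The cause of these turns was not tested. Of the 241 higher genes, 236 kept their sign wherever they were measured and 78 kept the 2-fold gap; of the 485 lower genes, 468 and 193 did. Scaling by TMM, by DESeq2 size factors or to a median of 0 left both counts within 1.5 times the main ones. Depth limits genes absent from Met Rep 2: at 303051 UMIs, 3 counts are 9.90 CPM.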

Other observations

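Mammary caseins, the milk proteins, were found in the chosen cells as well: Csn1s2a, Csn3, Csn2 and Csn1s1 had 8, 3, 2 and 1 UMIs in Met Rep 2 and none in WT Rep 2, 46.2 CPM in sum against 0, which allows up to 5.17 CPM. The same markers stood at 726 CPM in WT Rep 1 and 24.1 CPM in Met Rep 1, and at 0 in the Cx3cr1+/- and Cx3cr1-/- libraries. Haemoglobin and other erythrocyte transcripts in the chosen cells summed to 82.5 CPM in Met Rep 2 and 14.0 in WT Rep 2, and Hbb-bs had 15 and 8 UMIs.

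A heat shock element (GAA, any 2 bases, TTC, any 2 bases, GAA, on either strand) lay in the promoter window of 3 of 11 measured heat shock genes with an entry (27.3%), against 0.603% of all promoters. Hspd1 and Hspe1, which are 2 of these 3 genes, are transcribed in opposite directions from the same promoter and share the same matches.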
